A study of Mus musculus with 24 samples.

Results

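The 9 genes described here encode the IkB proteins IkBa (Nfkbia), IkBb (Nfkbib) and IkBe (Nfkbie), the atypical nuclear IkB proteins IkBNS (Nfkbid), IkBz (Nfkbiz) and Bcl-3 (Bcl3), the ubiquitin-editing enzyme A20 (Tnfaip3), and the A20-binding proteins ABIN1 (Tnip1) and ABIN3 (Tnip3). They were taken by name, as inhibitors and feedback regulators of NF-kB and their binding partners, with no measured value in the rule. All 9 were found among the 24273 genes of the table, and all 9 were among the 13901 genes that passed the filter on low values.

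RNA sequencing measured expression in BMDMs, the bone marrow-derived macrophages that differentiate when marrow cells are cultured. The control libraries are labelled LysM-Cre and carry the Cre recombinase of the Lyz2 (lysozyme M) locus, which acts in myeloid cells. The libraries labelled FosKO carry the same Cre with Fos flanked by loxP sites on both alleles (LysM-Cre Fos fl/fl). The study's text also gives its control cells 1 floxed copy of Fos, which the labels do not state, so the control genotype is given here by its label. Mouse cells of both genotypes were left unstimulated (0 h) or received 100 ng/ml lipopolysaccharide (LPS, the bacterial ligand of TLR4) for 0.5, 1 or 2 h. With 3 libraries in each of the 8 groups there were 24 libraries. The mice were on a C57BL/6 background, and their age is not given in the sources used here. The labels do not say which libraries came from the same animal, so the p-values measure only the spread between these libraries.

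NF-kB dimers are held inactive in the cytoplasm by the classical IkB proteins. LPS activates the IKK complex, which marks these proteins for destruction, and the freed dimers enter the nucleus and switch on genes that include those of their own inhibitors, so that newly made IkBa ends the first wave of activity. The atypical IkB proteins act in the nucleus on promoter-bound NF-kB and can repress some genes and activate others. A20 removes and edits ubiquitin chains upstream of IKK. ABIN1 and ABIN3 bind A20, and ABIN1 also binds ubiquitin. FOS, the protein whose gene was targeted, joins JUN proteins to form the transcription factor AP-1.

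Promoter stretches are shown here because the binding motifs of both factors could be read in them. RefSeq start sites on GRCm38.p6 gave a window of 250 bases before to 50 bases after the start for 8 of the 9 genes, in 11 windows, with 3 windows for Nfkbid and 2 for Tnfaip3. No window was used for Nfkbiz. Both strands were searched for a strict kB motif, GGGNNTTNCC, for a loose one that contains it, GGGNNNNNCC, and for the AP-1 motif TGANTCA. The strict kB motif was in 6 of the 11 windows, one each for 6 genes, and in 4.8% of 32817 promoter windows of the same length. The loose form was in 10 of the 11 windows and in 50.8% of all windows. The AP-1 motif was in 2 of the 11 windows and in 7.81% of all windows. A match is a description of letters and not a site shown to be bound. The stretches with a strict kB match follow, 5′ to 3′ on the strand of the gene, with the match in capitals and 10 bases on each side. In Nfkbia, Tnfaip3, Bcl3 and Tnip3 the motif reads on the opposite strand, so the capitals show its reverse complement.
Nfkbia: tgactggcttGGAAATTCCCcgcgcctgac
Tnfaip3: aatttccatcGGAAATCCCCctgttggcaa
Nfkbid: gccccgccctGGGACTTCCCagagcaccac
Bcl3: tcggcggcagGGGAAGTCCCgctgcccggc
Tnip1: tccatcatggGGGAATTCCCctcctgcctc
Tnip3: gagacatcctGGGAAATCCCagttacatgg
These stretches lie at chr12:55492657-55492686 (minus strand), chr10:19015403-19015432 (minus), chr7:30422170-30422199 (plus), chr7:19822734-19822763 (minus), chr11:54962978-54963007 (minus) and chr6:65590334-65590363 (plus), in that order. The match began 29 bases before the start site in Nfkbia, 12 before in Tnfaip3, 226 before in the second Nfkbid window, 57 before in Tnip1 and 54 before in Tnip3. In Bcl3 it began 2 bases after the start. These distances are from the RefSeq starts. By the GENCODE gene spans given below, the stretches of Tnfaip3, Nfkbid, Bcl3 and Tnip3 lie within the gene. The AP-1 motif, of interest because Fos was the targeted gene, was found in 2 genes, again with the match in capitals.
Nfkbie: cacgcaggagTGAGTCAagactggtaa
Tnfaip3: aatgcccaggTGACTCAcgcggggaca
The Nfkbie stretch lies at chr17:45555534-45555560 (plus strand), with the match beginning 156 bases before the start. The Tnfaip3 stretch lies at chr10:19015530-19015556 (minus strand), with the match beginning 136 bases before the start. It too lies within the GENCODE span of the gene.

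Values are the deposited log2 values, so that a difference of 1 is a doubling. Each test was the moderated test of limma over all 13901 genes with Benjamini-Hochberg adjustment, and a gene is said to have risen, fallen or differed when its adjusted p was under 0.05. The shares of all genes called count calls in either direction. The 3 libraries of a group correlated with r of 0.9946 or more over genes, which describes the libraries only, since genes are not independent replicates. The libraries fell into 2 sets by their 18S ribosomal RNA (Rn18s-rs5), which spanned 16.65 to 17.00 in 5 libraries of 0.5 or 1 h and 18.57 to 19.39 in the other 19. Values within these sets are therefore given beside the comparisons of genotypes at 0.5 and 1 h. Fos itself averaged 12.60, 12.75, 12.78 and 12.80 over 0, 0.5, 1 and 2 h in the libraries labelled FosKO and 11.11, 13.52, 11.15 and 9.52 in LysM-Cre. A value for the whole gene does not separate the deleted part from the rest of the transcript, so it does not check the labels. The macrophage markers Adgre1, Csf1r and Cd68 were at 14.61 or more in every library, and the summed level of the 5 macrophage markers in the table spanned 16.96 to 17.06 in LysM-Cre and 16.96 to 17.15 in FosKO. Of the neutrophil markers, Ly6g and Elane were at the lowest values of the table, and 3 of 7 passed the filter (S100a8, S100a9 and Ngp), with a summed level of 6.14 to 7.18 in LysM-Cre and 5.54 to 6.27 in FosKO. Cd3d, Cd3e and Cd3g (T cells) and Cpa3 (mast cells) were all at -0.94 or less in every library. The one T cell marker past the filter, Cd4, gave a summed level of 7.59 to 7.90 in LysM-Cre and 8.01 to 8.45 in FosKO, and the macrophage markers Mertk and Fcgr1 averaged 9.68 and 12.48 in LysM-Cre and 10.80 and 13.20 in FosKO. The dendritic cell list (2 of 3 markers past the filter, Zbtb46 and Xcr1) summed to 4.78 to 6.90 in LysM-Cre and 4.75 to 6.42 in FosKO. The fibroblast list (3 of 4, the collagen genes Col1a1, Col1a2 and Col3a1) summed to 4.14 to 5.03 and 4.05 to 4.66, with Pdgfra at -0.23 or less. The B cell marker Cd79b averaged 5.34 in LysM-Cre and 5.08 in FosKO, and the erythroid marker Hbb-bt was at -2.07 or less. The part of these markers in the differences between genotypes was not tested.

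All 9 genes rose with LPS, in 2 kinetic patterns. In LysM-Cre BMDMs 8 of the 9 had risen at 0.5 h, where 7.24% of all genes were called, and 9 of 9 at 1 h and 2 h, where 35.8% and 60.8% were called. FosKO BMDMs gave the same counts, 8, 9 and 9, against 5.92%, 32.6% and 62.1% of all genes. These shares count genes that rose or fell. Those that rose numbered 708, 2673 and 4248 of 13901 in LysM-Cre and 619, 2447 and 4530 in FosKO. The gene not called at 0.5 h was Tnip1 in both. A rise of at least 2-fold was reached by 4, 9 and 9 genes over 0.5, 1 and 2 h in LysM-Cre, where 0.662%, 2.34% and 5.43% of all genes did so, and by 4, 7 and 9 in FosKO, where 0.561%, 2.24% and 5.83% did so. The 4 genes that had doubled by 0.5 h were Nfkbia, Nfkbid, Nfkbiz and Tnfaip3 in both genotypes. These comparisons share their 0 h libraries within a genotype and are not independent of each other. In such bulk samples, fewer responding cells and less RNA per cell cannot be told apart.

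From 0.5 to 1 h all 9 genes rose further in both genotypes, where 26.8% of all genes were called in LysM-Cre and 27.5% in FosKO. Of the 13901 genes, 1946 rose in LysM-Cre and 2013 in FosKO. From 1 to 2 h the genes parted. Nfkbia, Nfkbid, Nfkbiz and Tnfaip3 fell, and Nfkbib, Nfkbie, Bcl3, Tnip1 and Tnip3 rose, in both genotypes, where 52.3% of all genes were called in LysM-Cre and 50.7% in FosKO. The fast genes therefore peaked at 1 h among the times measured, and the slow genes were at their highest at 2 h. The rise of Tnip3 from 1 to 2 h in LysM-Cre was small, 0.12 ± 0.048 (SE, adjusted p = 0.047), and leaving out any one of the 6 libraries took its adjusted p to between 0.0591 and 0.166. The rise of Nfkbia from 0.5 to 1 h in LysM-Cre, 0.15 ± 0.040 (SE, adjusted p = 0.00628), was -0.014 after quantile normalisation, and it did not pass without LysM-Cre replicate 1 of 0.5 h (0.12, adjusted p = 0.0539). In the 19 high 18S libraries, with 1 LysM-Cre library at 1 h, that rise was 0.15. The same step in FosKO went from 0.20 to 0.056 (adjusted p = 0.226) after quantile normalisation and no longer passed.

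**Figure D1:**
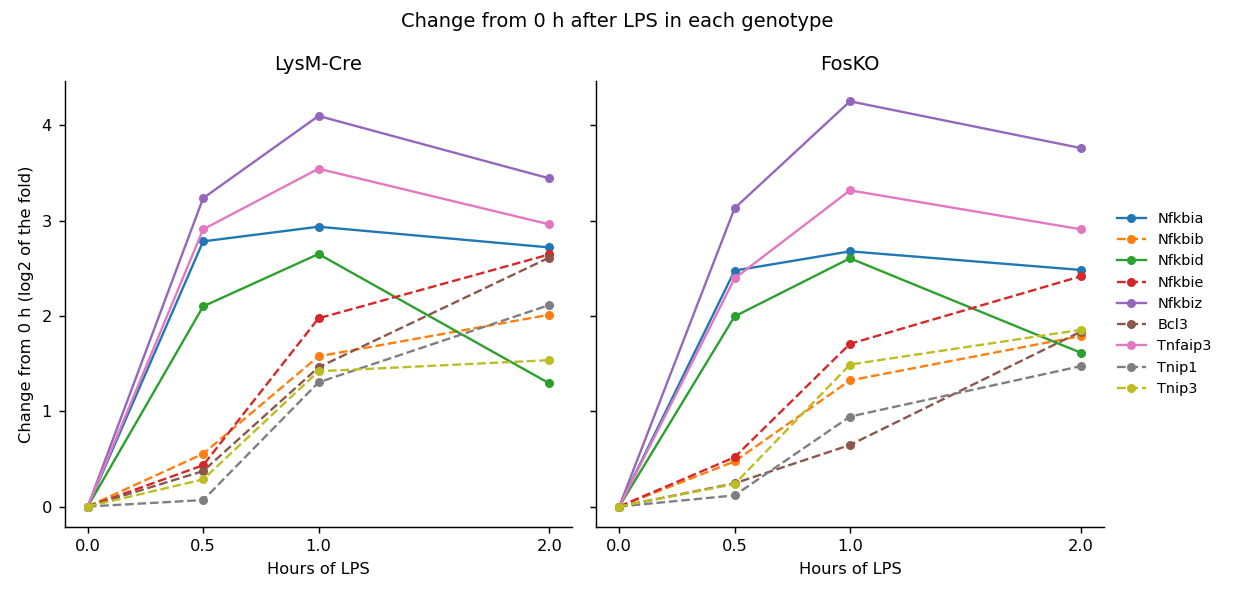
Change from 0 h on the log2 scale (y axis) against hours of LPS (x axis) for each gene, in LysM-Cre (left) and FosKO (right), each point a difference of means of 3 libraries. Solid lines are the 4 genes that rose at least 2-fold by 0.5 h and were lower at 2 h than at 1 h, and dashed lines are the 5 that were highest at 2 h.

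Among the fast genes, Nfkbiz rose the most. IkBz is itself needed for the induction of some secondary response genes. At 0 h Nfkbiz read 11.11, 11.06 and 11.06 in the LysM-Cre libraries and 11.14, 11.13 and 11.18 in the FosKO libraries. At 0.5 h the LysM-Cre libraries read 14.20, 14.39 and 14.35 and the FosKO libraries 14.24, 14.25 and 14.36, so the genotypes overlapped. By 1 h they had separated, at 15.14, 15.18 and 15.20 in LysM-Cre and 15.37, 15.43 and 15.42 in FosKO. The gap was wider at 2 h, with 14.51, 14.52 and 14.54 in LysM-Cre and 14.90, 14.92 and 14.93 in FosKO. Nfkbiz rose 9.43-fold, 17.1-fold and 10.9-fold at 0.5, 1 and 2 h in LysM-Cre and 8.77-fold, 19.1-fold and 13.6-fold in FosKO. The difference between genotypes, FosKO minus LysM-Cre, was 0.23 ± 0.038 (SE, adjusted p = 8.89e-05) at 1 h and 0.39 ± 0.038 (SE, adjusted p = 6.53e-08) at 2 h. It was 0.075 ± 0.038 (SE, adjusted p = 0.146) at 0 h and -0.03 ± 0.038 (SE, adjusted p = 0.579) at 0.5 h, which did not pass. After quantile normalisation the 0.5 h difference of Nfkbiz was -0.13 (adjusted p = 0.00345) and passed. The fall from 1 to 2 h was -0.66 in LysM-Cre and -0.49 in FosKO.

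Tnfaip3, the gene of A20, had the second highest rise at 1 h in both genotypes. At 0 h Tnfaip3 read 11.86, 11.79 and 11.79 in LysM-Cre and 12.12, 12.18 and 12.28 in FosKO, every FosKO library being the higher. At 0.5 h it read 14.60, 14.81 and 14.75 in LysM-Cre and 14.53, 14.55 and 14.67 in FosKO, where the groups overlapped. At 1 h the values were 15.31, 15.32 and 15.45 and 15.48, 15.51 and 15.53, and at 2 h they were 14.72, 14.76 and 14.84 and 15.12, 15.03 and 15.15, in the same order, with the FosKO libraries above the LysM-Cre libraries at both times. Tnfaip3 thus started higher in FosKO, lay close to the threshold at 0.5 h, and ended higher. Over 0, 0.5, 1 and 2 h the Tnfaip3 difference came to 0.38 ± 0.055 (SE, adjusted p = 1.66e-05), -0.14 ± 0.055 (SE, adjusted p = 0.0502), 0.15 ± 0.055 (SE, adjusted p = 0.0393) and 0.33 ± 0.055 (SE, adjusted p = 5.52e-05). The rise to 0.5 h was 7.52-fold in LysM-Cre and 5.26-fold in FosKO. The 0.5 h difference of Tnfaip3 did pass, as lower in FosKO, after quantile normalisation (-0.26, adjusted p = 3.07e-04), with the stricter filter (adjusted p = 0.0454), with a replicate block (adjusted p = 0.0185), and without FosKO replicate 3 (-0.18, adjusted p = 0.0199) or LysM-Cre replicate 1 (-0.20, adjusted p = 0.00704). At 1 h it no longer passed when FosKO replicate 2 or 3 or LysM-Cre replicate 1 or 2 was left out (adjusted p 0.091 to 0.135). The 1 h call was also lost with the 18S set as a term (adjusted p = 0.0504), with no filter on low values (0.0631) and with no variance trend (0.052). In the 19 high 18S libraries, with 1 LysM-Cre library at 1 h, the difference was 0.21. After quantile normalisation the difference was 0.039 at 1 h (adjusted p = 0.592) and 0.056 at 2 h (adjusted p = 0.398).

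Nfkbia, the gene of IkBa, rose fast and then stayed near its peak. At 0 h Nfkbia read 11.77, 11.76 and 11.73 in LysM-Cre and 11.96, 12.03 and 12.12 in FosKO, without overlap. After LPS the groups overlapped at each time. At 0.5 h it read 14.46, 14.59 and 14.56 in LysM-Cre and 14.48, 14.49 and 14.57 in FosKO. At 1 h the values were 14.68, 14.69 and 14.70 in LysM-Cre and 14.68, 14.72 and 14.75 in FosKO, and at 2 h 14.46, 14.49 and 14.48 and 14.48, 14.48 and 14.60. The difference was 0.28 ± 0.040 (SE, adjusted p = 1.45e-05) at 0 h, and it was -0.026, 0.023 and 0.045 at 0.5, 1 and 2 h, with adjusted p of 0.664, 0.711 and 0.402 and 95% intervals of -0.11 to 0.059, -0.061 to 0.11 and -0.039 to 0.13. After quantile normalisation the difference of Nfkbia was -0.14 (adjusted p = 0.00156) at 0.5 h and -0.16 (adjusted p = 3.40e-04) at 2 h, lower in FosKO. Nfkbia rose 7.66-fold to 1 h in LysM-Cre and 6.4-fold in FosKO, and fell by only 0.22 and 0.20 from 1 to 2 h on the log2 scale.

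Nfkbid, the gene of IkBNS, was the most transient of the 9. At 0 h Nfkbid read 8.60, 8.59 and 8.55 in LysM-Cre and 8.35, 8.54 and 8.42 in FosKO. At 0.5 h it read 10.58, 10.73 and 10.73 in LysM-Cre and 10.43, 10.33 and 10.53 in FosKO, and at 1 h 11.16, 11.26 and 11.27 and 11.00, 11.09 and 11.04. At each of these 3 times every FosKO library was below every LysM-Cre library. At 2 h the order was the other way, with 9.90, 9.90 and 9.82 in LysM-Cre and 9.99, 10.04 and 10.11 in FosKO. The Nfkbid difference over 0, 0.5, 1 and 2 h came to -0.14 ± 0.054 (SE, adjusted p = 0.0442), -0.25 ± 0.054 (SE, adjusted p = 8.85e-04), -0.19 ± 0.054 (SE, adjusted p = 0.00984) and 0.18 ± 0.054 (SE, adjusted p = 0.0109). The step of Nfkbid from 1 to 2 h was -1.36 in LysM-Cre and -0.99 in FosKO. Of the calls, that at 0 h was lost without any one of 5 of the 6 libraries (adjusted p 0.0617 to 0.192, FosKO replicate 2 being the exception), and that at 2 h did not pass with replicate 3 of LysM-Cre (adjusted p = 0.0552) or of FosKO (adjusted p = 0.0584) left out, or after quantile normalisation (adjusted p = 0.0852). The 0 h call was also lost, at the same -0.14, with no filter on low values or no variance trend. It was likewise lost in the 19 high 18S libraries and with only the groups compared in the fit (adjusted p 0.0579 to 0.109 over these settings). In the 19 high 18S libraries, with 1 LysM-Cre library at 1 h, the Nfkbid difference at 1 h was -0.094.

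Among the slow genes, Bcl3 and Tnip1 changed direction between the genotypes. Bcl-3 binds homodimers of p50 and p52 in the nucleus. At 0 h Bcl3 read 8.48, 8.43 and 8.45 in LysM-Cre and 8.70, 8.78 and 9.02 in FosKO, and at 0.5 h 8.78, 8.83 and 8.86 and 9.05, 8.94 and 9.24, with the FosKO libraries higher both times. At 1 h the order had turned, with 9.86, 9.91 and 9.98 in LysM-Cre and 9.46, 9.42 and 9.56 in FosKO. At 2 h the values were 11.04, 11.09 and 11.08 and 10.62, 10.64 and 10.74, again lower in every FosKO library. FosKO replicate 3 was the highest of its group at all 4 times, as it was for Nfkbia, Nfkbib, Nfkbie, Tnfaip3 and Tnip1. With Bcl3 these are the genes called higher in FosKO at 0 h. The labels do not say whether the replicate number marks a shared animal. Over 0, 0.5, 1 and 2 h the Bcl3 difference came to 0.38 ± 0.070 (SE, adjusted p = 2.47e-04), 0.25 ± 0.070 (SE, adjusted p = 0.00723), -0.44 ± 0.070 (SE, adjusted p = 5.56e-05) and -0.40 ± 0.070 (SE, adjusted p = 9.63e-05). At 0.5 h it was 0.17 when FosKO replicate 3 was left out (adjusted p = 0.0687). Bcl3 had risen 2.75-fold at 1 h in LysM-Cre and 1.56-fold in FosKO, and 6.12-fold and 3.57-fold at 2 h. Its rise to 0.5 h in FosKO, 0.24 ± 0.070 (SE, adjusted p = 0.0454), came from groups that overlapped and was not called under 6 other processing settings (adjusted p 0.0519 to 0.42) or without FosKO replicate 1 or 3 at 0.5 h or replicate 1 or 2 at 0 h (0.067 to 0.278).

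Tnip1, the gene of ABIN1, was the gene whose rise had not passed by 0.5 h. At 0 h Tnip1 read 11.33, 11.30 and 11.34 in LysM-Cre and 11.64, 11.59 and 11.80 in FosKO, and at 0.5 h 11.39, 11.40 and 11.38 and 11.74, 11.73 and 11.91. Every FosKO library was higher at these 2 times. The groups met at 1 h, at 12.55, 12.64 and 12.68 in LysM-Cre and 12.56, 12.63 and 12.67 in FosKO. At 2 h they had crossed, with 13.43, 13.48 and 13.39 in LysM-Cre and 13.13, 13.10 and 13.21 in FosKO, every FosKO library being the lower. The Tnip1 difference over 0, 0.5, 1 and 2 h came to 0.35 ± 0.051 (SE, adjusted p = 1.69e-05), 0.40 ± 0.051 (SE, adjusted p = 2.40e-06), -0.0065 ± 0.051 (SE, adjusted p = 0.944) and -0.29 ± 0.051 (SE, adjusted p = 1.03e-04). Its change from 0 to 0.5 h was 0.068 ± 0.051 (SE, adjusted p = 0.584) in LysM-Cre and 0.12 ± 0.051 (SE, adjusted p = 0.212) in FosKO. With FosKO replicate 3 of the 0 h group left out, the latter was 0.18 and passed (adjusted p = 0.03), as did 0.12 with a replicate block within genotype (adjusted p = 0.0369), which made all 9 genes called at that time. At 2 h Tnip1 had risen 4.33-fold in LysM-Cre and 2.78-fold in FosKO.

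Tnip3, the gene of ABIN3, had the lowest FosKO values relative to LysM-Cre before LPS and at 0.5 h. At 0 h Tnip3 read 12.19, 12.19 and 12.27 in LysM-Cre and 11.83, 11.67 and 11.86 in FosKO. At 0.5 h the values were 12.39, 12.56 and 12.55 and 12.02, 11.97 and 12.07, and at 1 h 13.60, 13.66 and 13.65 and 13.31, 13.23 and 13.29. The gap narrowed at 2 h, to 13.73, 13.73 and 13.80 in LysM-Cre and 13.69, 13.60 and 13.64 in FosKO, still without overlap. Over 0, 0.5, 1 and 2 h the Tnip3 difference came to -0.43 ± 0.048 (SE, adjusted p = 6.22e-07), -0.48 ± 0.048 (SE, adjusted p = 1.00e-07), -0.36 ± 0.048 (SE, adjusted p = 5.48e-06) and -0.11 ± 0.048 (SE, adjusted p = 0.0633), the last of which did not pass. The 2 h difference of Tnip3 was -0.33 (adjusted p = 7.93e-06) after quantile normalisation, and it also passed with only the groups compared in the fit (adjusted p = 0.0188) or with a replicate block (0.0408). At 2 h Tnip3 had risen 2.9-fold in LysM-Cre and 3.62-fold in FosKO.

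Nfkbib and Nfkbie, the genes of the other classical inhibitors IkBb and IkBe, rose without a fall by 2 h. At 0 h Nfkbib read 9.39, 9.25 and 9.28 in LysM-Cre and 9.55, 9.57 and 9.64 in FosKO, and at 0.5 h 9.87, 9.85 and 9.85 and 10.04, 10.03 and 10.11. FosKO was higher without overlap at both times. At 1 h the libraries overlapped, at 10.82, 10.89 and 10.94 in LysM-Cre and 10.87, 10.91 and 10.95 in FosKO, as they did at 2 h, at 11.30, 11.32 and 11.34 and 11.39, 11.30 and 11.43. The Nfkbib difference over 0, 0.5, 1 and 2 h came to 0.28 ± 0.040 (SE, adjusted p = 1.22e-05), 0.20 ± 0.040 (SE, adjusted p = 3.56e-04), 0.029 ± 0.040 (SE, adjusted p = 0.623) and 0.058 ± 0.040 (SE, adjusted p = 0.262). The 1 h and 2 h values were -0.013 and -0.052 after quantile normalisation. Parts of the Nfkbib exons, 314 and 42 bases, lie opposite exons of Ccer2 and Sirt2 in GENCODE, and 161 bases of Bcl3 lie opposite an exon of Gm16175. The study's methods call the reads strand-specific, and whether the counting used the strand is not given in the sources used here.

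Nfkbie followed the same course from a wider spread. At 0 h Nfkbie read 9.70, 9.71 and 9.71 in LysM-Cre and 9.97, 10.05 and 10.21 in FosKO. At 0.5 h the values were 10.03, 10.19 and 10.20 and 10.46, 10.50 and 10.82, where FosKO replicate 3 stood well above the other 2 FosKO libraries. At 1 h they were 11.61, 11.70 and 11.74 and 11.70, 11.82 and 11.84, and the groups overlapped. At 2 h they were 12.35, 12.33 and 12.39 and 12.47, 12.47 and 12.54, without overlap. Over 0, 0.5, 1 and 2 h the Nfkbie difference came to 0.37 ± 0.074 (SE, adjusted p = 5.10e-04), 0.45 ± 0.074 (SE, adjusted p = 4.63e-05), 0.099 ± 0.074 (SE, adjusted p = 0.328) and 0.14 ± 0.074 (SE, adjusted p = 0.141). With only the groups compared in the fit, the 2 h difference of Nfkbie passed (adjusted p = 0.00381), as it did with a replicate block (0.041). After quantile normalisation that difference was -0.0031 (adjusted p = 0.976). Nfkbie rose 6.26-fold by 2 h in LysM-Cre and 5.34-fold in FosKO, the largest rise of the slow genes in both, with Bcl3 next in LysM-Cre at 6.12-fold.

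**Figure D2:**
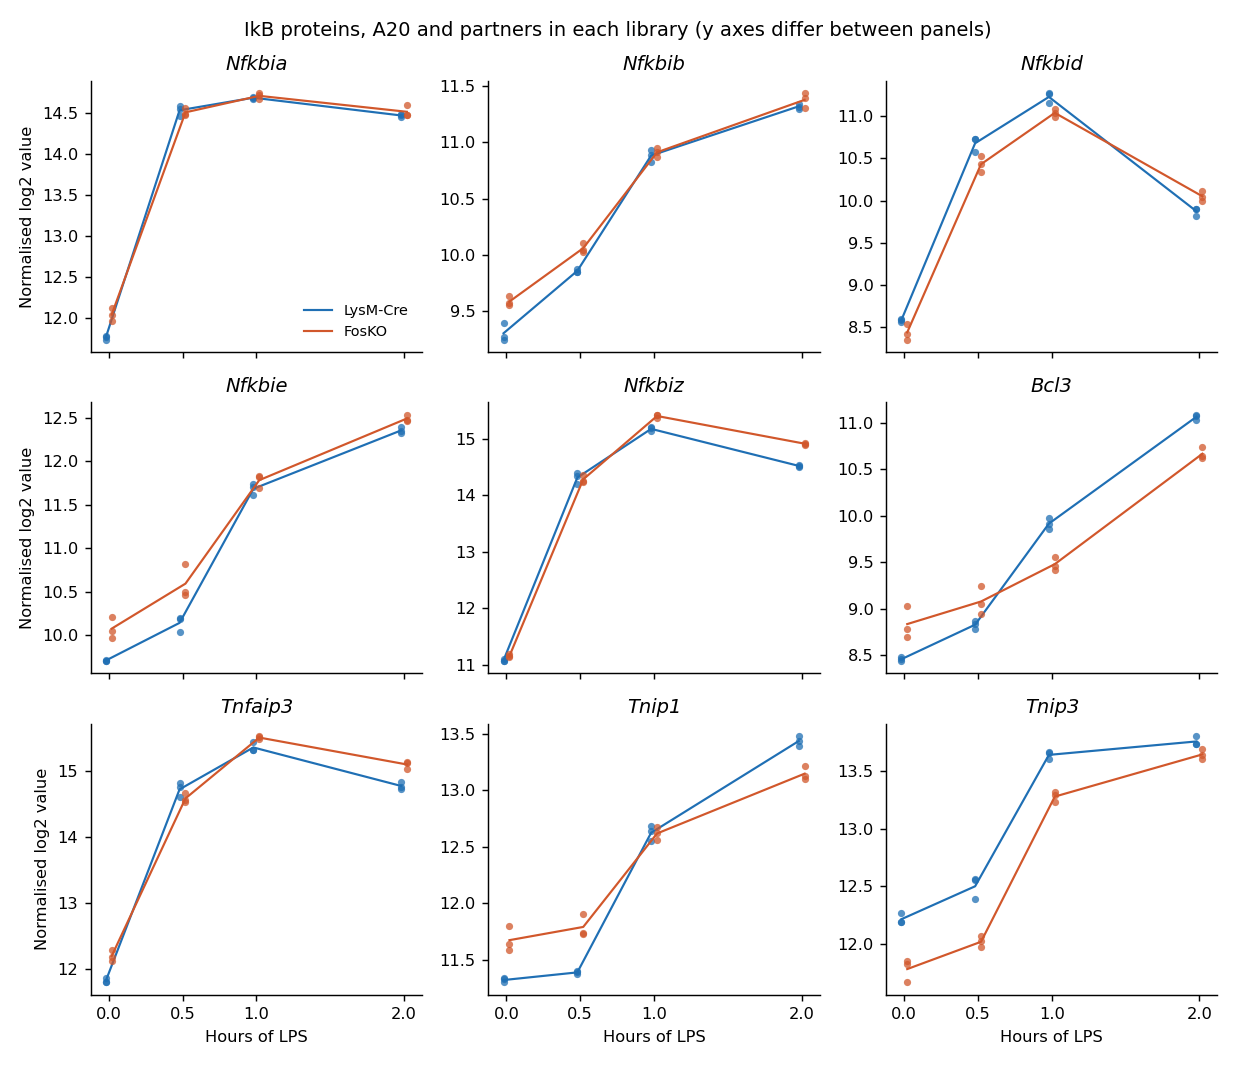
Normalised log2 value (y axis, scaled per panel) of each gene against hours of LPS (x axis), with 1 point per library (3 per group) and lines through the group means, LysM-Cre in blue and FosKO in orange. Bcl3 and Tnip1 lines cross between the genotypes, with FosKO above at 0 and 0.5 h and below at 2 h, while Tnip3 is lower in FosKO at every time.

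The genes that differed between genotypes were then counted by time. At 0 h 8 of the 9 genes differed, where 35.4% of all genes were called. Nfkbia, Nfkbib, Nfkbie, Bcl3, Tnfaip3 and Tnip1 were higher in FosKO by 0.28 to 0.38, and Nfkbid and Tnip3 were lower. At 0.5 h 6 of 9 differed, where 40.9% of all genes were called, with Nfkbib, Nfkbie, Bcl3 and Tnip1 higher and Nfkbid and Tnip3 lower. At 1 h 5 of 9 differed against 33.9% of all genes, with Nfkbiz and Tnfaip3 higher and Nfkbid, Bcl3 and Tnip3 lower. At 2 h 5 of 9 differed against 44.6% of all genes, with Nfkbid, Nfkbiz and Tnfaip3 higher and Bcl3 and Tnip1 lower. After quantile normalisation 8, 9, 4 and 5 of the 9 differed at 0, 0.5, 1 and 2 h, with Nfkbia, Nfkbiz and Tnfaip3 lower in FosKO at 0.5 h. The 5 at 2 h were then 1 higher and 4 lower, since Nfkbia and Tnip3 were called lower and Nfkbid and Tnfaip3 were not called. None of the 9 genes differed by 2-fold between the genotypes at any time, and the widest difference was -0.48, for Tnip3 at 0.5 h. With 9 genes, 5 of 9 at 2 h lies close to the share of all genes, and nothing particular to these genes is read from it.

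Averaged over the 4 times, 8 of 9 genes differed, where 60.5% of all genes were called. Tnip3 was the most different at -0.35 ± 0.024 (SE, adjusted p = 8.86e-11), followed by Nfkbie at 0.26 ± 0.037 (SE, adjusted p = 2.85e-06). Nfkbib (0.14), Nfkbiz (0.17), Tnfaip3 (0.18), Tnip1 (0.12) and Nfkbia (0.081) were also higher in FosKO, and Nfkbid (-0.10) was lower. For Nfkbia the average was -0.036 after quantile normalisation, and for Tnfaip3 and Tnip1 it was 0.043 and 0.022 there and no longer passed. In the 19 high 18S libraries the average of Nfkbid was -0.070 (adjusted p = 0.0924) and did not pass. Bcl3, higher early and lower late, averaged -0.052 ± 0.035 (SE, adjusted p = 0.218), and leaving out FosKO replicate 3 of the 0 h group made it -0.075 (adjusted p = 0.0339).

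Within the 18S sets, which at 0.5 h hold 2 libraries of each genotype (high) and 1 of each (low), and at 1 h 2 FosKO and 1 LysM-Cre (high) and 1 FosKO and 2 LysM-Cre (low), most differences kept their sign. At 0.5 h Tnip3 was -0.46 in the high and -0.53 in the low set, Tnip1 0.42 and 0.36, Nfkbie 0.55 and 0.26, Bcl3 0.28 and 0.18, Nfkbib 0.21 and 0.19, and Nfkbid -0.22 and -0.31. At 1 h Bcl3 was -0.37 in the high and -0.48 in the low set, Tnip3 -0.34 and -0.34, Nfkbiz 0.28 and 0.17, Tnfaip3 0.21 and 0.10, and Nfkbid -0.094 and -0.27. The genes whose sign differed between the sets were not called at those times, and they were Nfkbia and Nfkbiz at 0.5 h and Nfkbia, Nfkbib, Nfkbie and Tnip1 at 1 h.

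**Figure D3:**
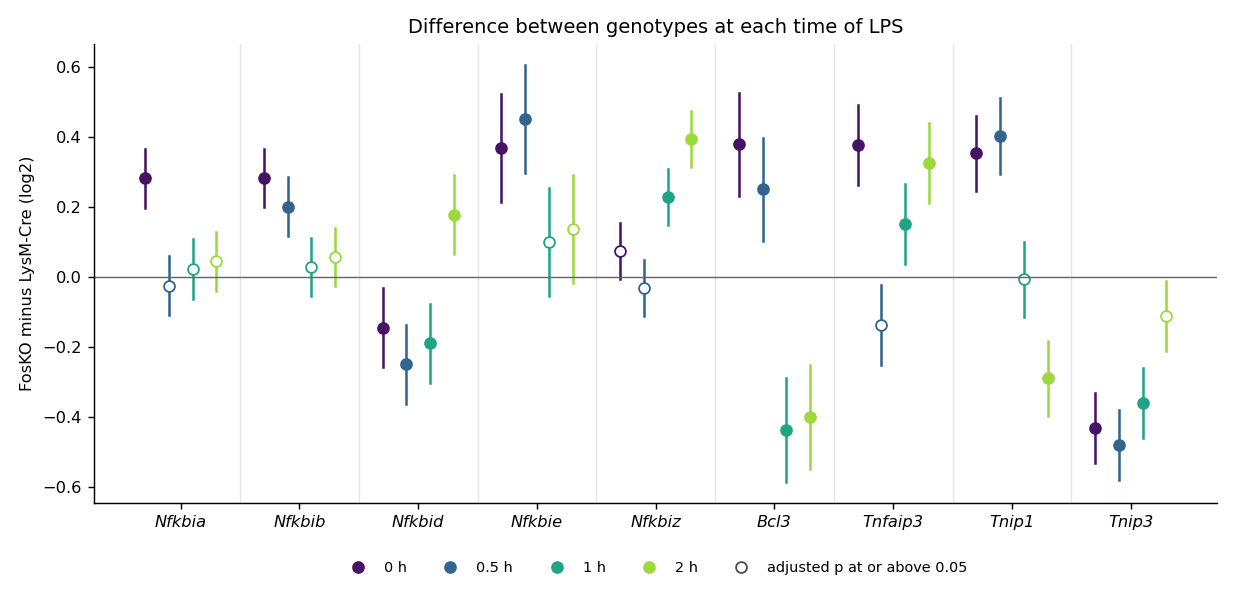
Difference between genotypes (y axis, FosKO minus LysM-Cre on the log2 scale) for each gene (x axis) at 0, 0.5, 1 and 2 h of LPS, from 3 libraries per group. Points are limma estimates, lines are 95% intervals, and open points had an adjusted p of 0.05 or more. Bcl3 and Tnip1 pass from above to below 0 and Nfkbiz and Tnfaip3 are above 0 at 1 and 2 h.

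The difference between genotypes in the change from 0 h was tested directly, as the change in FosKO minus the change in LysM-Cre. It shares the 0 h libraries across times, and the 0 h difference itself enters it. At 0.5 h it passed for 2 of 9 genes, where 0.115% of all genes were called. Tnfaip3 rose by 2.39 in FosKO against 2.91 in LysM-Cre, a difference of -0.52 ± 0.077 (SE, adjusted p = 0.00333), and Nfkbia by 2.48 against 2.78, a difference of -0.31 ± 0.057 (SE, adjusted p = 0.0303). The Nfkbia value at 0.5 h was lost without any one of 9 of the 12 libraries (adjusted p 0.0675 to 0.136). Neither gene passed in the 19 high 18S libraries, where the differences were -0.47 for Tnfaip3 (adjusted p = 0.0783) and -0.28 for Nfkbia (0.555). With only the 4 groups compared in the fit, neither passed (0.106 and 0.417), with the differences unchanged.

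At 1 h the difference in change passed for 4 of 9 genes, against 1.22% of all genes in either direction. All 4 had a smaller rise in FosKO. Of all genes called, the difference was below 0 for 101 and above 0 for 68. Bcl3 rose by 0.65 in FosKO and 1.46 in LysM-Cre, a difference of -0.82 ± 0.0997 (SE, adjusted p = 5.24e-05). For Tnip1 the difference was -0.36 ± 0.072 (SE, adjusted p = 0.0108), for Nfkbia -0.26 ± 0.057 (SE, adjusted p = 0.0227) and for Nfkbib -0.25 ± 0.056 (SE, adjusted p = 0.0243). In the high 18S libraries, which hold 1 LysM-Cre library at 1 h, the difference was -0.26 for Tnip1, -0.23 for Nfkbia and -0.17 for Nfkbib. With 1 library in that group, no call is read there. Leaving out single libraries took the calls of Nfkbia (8 libraries, adjusted p 0.0525 to 0.0729) and Nfkbib (7 libraries, 0.0598 to 0.0938). With only the groups compared in the fit, the calls of Tnip1 (adjusted p = 0.0501) and Nfkbib (0.125) were lost, with the differences unchanged.

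At 2 h it passed for 7 of 9 genes, against 15.0% of all genes, 4 with a smaller and 3 with a larger rise in FosKO. The smaller rises were those of Bcl3, 1.84 in FosKO and 2.61 in LysM-Cre with a difference of -0.78 ± 0.0997 (SE, adjusted p = 1.52e-05), and of Tnip1, 1.47 and 2.12 with a difference of -0.64 ± 0.072 (SE, adjusted p = 3.55e-06). Nfkbia (-0.24 ± 0.057 (SE, adjusted p = 0.00697)) and Nfkbib (-0.22 ± 0.056 (SE, adjusted p = 0.00928)) were the other two. The larger rises were those of Nfkbid, 0.32 ± 0.077 (SE, adjusted p = 0.00635), of Nfkbiz, 0.32 ± 0.054 (SE, adjusted p = 3.56e-04), and of Tnip3, 0.32 ± 0.067 (SE, adjusted p = 0.00249). These 7 calls stood when any one library was left out. For Tnfaip3 the 2 h difference was -0.052, with a 95% interval of -0.21 to 0.11 and an adjusted p of 0.738, and for Nfkbie it was -0.23, with an interval of -0.45 to -0.013 and an adjusted p of 0.158. After quantile normalisation both passed, Tnfaip3 at -0.28 (adjusted p = 0.0105) and Nfkbie at -0.33 (adjusted p = 0.0234, and 0.039 with only the groups compared in the fit), and Tnfaip3 also passed at 1 h, at -0.29 (adjusted p = 0.0377). Nfkbie passed at 2 h as well with a replicate block over both genotypes (adjusted p = 0.0417) or within genotype (0.0269).

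**Figure D4:**
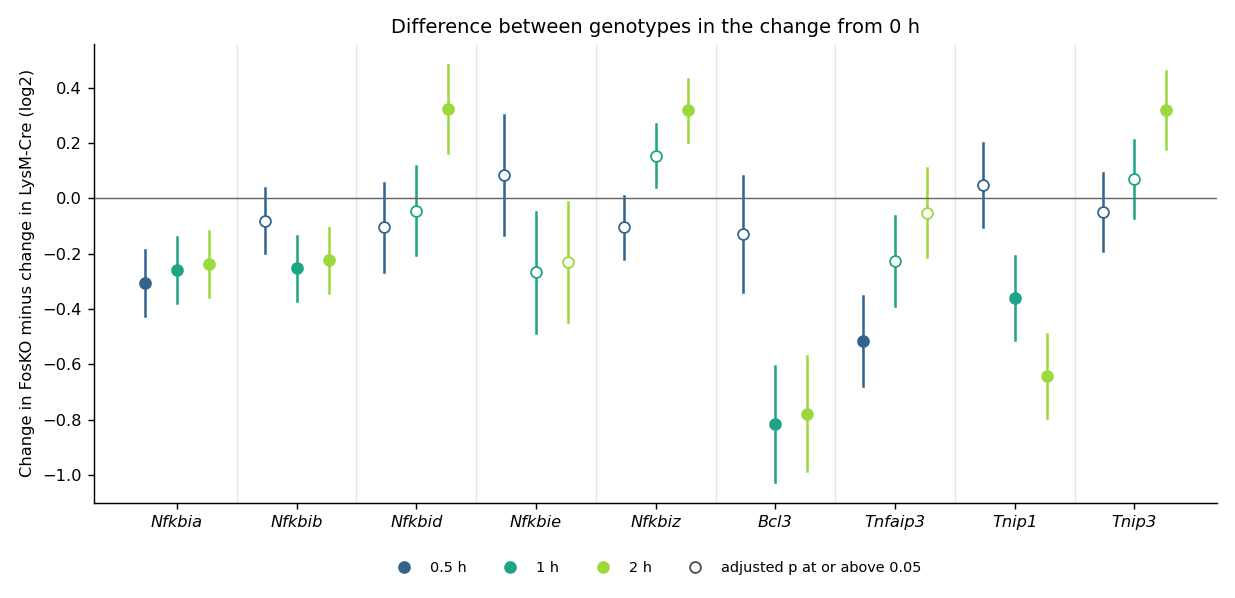
Change from 0 h in FosKO minus change from 0 h in LysM-Cre (y axis, log2) for each gene (x axis) at 0.5, 1 and 2 h of LPS, from 3 libraries per group, with 95% intervals from limma and open points where the adjusted p was 0.05 or more. Bcl3 lies lowest at 1 and 2 h, and Nfkbid, Nfkbiz and Tnip3 lie above 0 at 2 h.

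Levels were compared between genes per kilobase of exon in GENCODE, as the linear value (2 raised to the log2 value) divided by the length of all exons of the gene. Nfkbia stood highest in all 8 groups, at 2146 per kb in LysM-Cre at 0 h and 16438 at 1 h. Tnip1 was second at 0 h, at 723 per kb in LysM-Cre, and Nfkbiz was second at the later times, reaching 7379 at 1 h. Tnfaip3 held rank 3 in all 8 groups, at 498 per kb at 0 h and 5823 at 1 h in LysM-Cre. In LysM-Cre at 0 h Tnip3 (436) and Nfkbiz (430), and Nfkbib (292) and Nfkbie (275), followed. The libraries of Tnip3 and Nfkbiz overlapped there, and those of Nfkbib and Nfkbie did not. Nfkbid (163) and Bcl3 (142) were the lowest at 0 h. By 2 h Bcl3 stood at 867 per kb in LysM-Cre and 658 in FosKO, above Nfkbid at 400 and 452. These levels depend on the exon length used, which for Tnip3 (10.92 kb) and Tnfaip3 (7.23 kb) is long.

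The genes lie on 7 chromosomes of GRCm38, and all are annotated as protein coding. Nfkbia lies at chr12:55489410-55492647 (minus strand), Tnfaip3 at chr10:19000910-19015657 (minus), Nfkbiz at chr16:55811375-55838899 (minus) and Nfkbie at chr17:45555703-45563169 (plus). Tnip1 lies at chr11:54910785-54962917 (minus) and Tnip3 at chr6:65525313-65634040 (plus). Nfkbib, Nfkbid and Bcl3 share chromosome 7, at chr7:28758251-28767512 (minus), chr7:30421732-30428746 (plus) and chr7:19808462-19822770 (minus). None of the 9 had values identical to those of another gene.

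The course over the 8 group means was compared between genes by the root mean square distance of the centred means, as a description with no test. Tnfaip3 was nearest to Nfkbia (0.27) and Nfkbiz (0.30), and Tnip1 to Nfkbib (0.20) and Bcl3 (0.23), so the nearest genes lay within the same kinetic pattern. The largest distance, 1.29, was between Nfkbiz and Bcl3. Among all tested genes with a symbol other than the 9, the gene nearest to Nfkbie was Traf1 (0.066), an adaptor of TNF receptors, then Cflar (0.15) and Cdc42ep2 (0.16). Nearest to Tnip1 were Stk40 (0.073), Tnfrsf1b (0.13) and the NF-kB subunit gene Relb (0.14). Nearest to Nfkbib were Sod2 (0.11), Sqstm1 (0.12) and the ubiquitin ligase gene Birc3 (0.12). Nearest to Nfkbiz were the cytokine gene Tnf (0.17), the chemokine gene Cxcl2 (0.18) and Csrnp1 (0.32), and nearest to Tnfaip3 were Csrnp1 (0.18), Tnf (0.28) and Maff (0.29). Nfkbid was nearest to Junb (0.17), which encodes a partner of FOS, then Egr3 (0.27) and Id3 (0.29). Tnip3 was nearest to Plaur (0.11), Txnrd1 (0.13) and Mki67 (0.14), Bcl3 to Col11a2 (0.14), Efna2 (0.14) and Bcor (0.16), and Nfkbia to Gadd45b (0.32), Csrnp1 (0.38) and Dusp2 (0.40).

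The NF-kB subunits, which the IkB proteins bind, were followed as a list of 5 genes (Rel, Rela, Relb, Nfkb1 and Nfkb2). The share of all genes called in either direction applies to each list from here on. With LPS it was 35.8% and 60.8% at 1 and 2 h in LysM-Cre, and 32.6% and 62.1% in FosKO. Between genotypes it was 35.4%, 40.9%, 33.9% and 44.6% at 0, 0.5, 1 and 2 h. All 5 had risen at 1 and 2 h in both genotypes, with a median change of 1.92 at 2 h in LysM-Cre and 1.89 in FosKO, where the median of all genes was -0.016 and 0.0047. Between genotypes 4, 4, 1 and 3 of the 5 were higher in FosKO over the 4 times, and 0 were lower in limma, also at an unadjusted p under 0.05. The count at 1 h lies below the share of all genes. The largest at 0 h was Relb, at 0.34 ± 0.054 (SE, adjusted p = 4.48e-05), followed by Nfkb2 (0.25) and Rela (0.17). At 2 h Rel, at 0.37 ± 0.053 (SE, adjusted p = 1.04e-05), and Rela, at 0.37 ± 0.040 (SE, adjusted p = 2.76e-07), were the largest, and Nfkb1 (0.15) came next. At 0.5 h the order was Relb (0.42), Nfkb2 (0.30) and Nfkb1 (0.15), and at 1 h the one call was Rela (0.20).

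The genes that destroy IkB proteins, the IKK complex and the SCF ligase, were a list of 8. At 0.5 h the limma test called none of them in either genotype, and at an unadjusted p under 0.05 it called 1 in LysM-Cre and 0 in FosKO, where 7.24% and 5.92% of all genes were called after adjustment. At 2 h 6 had risen and 2 had fallen in LysM-Cre, and 5 and 2 in FosKO, with medians of 0.27 and 0.27. Between genotypes 3 were higher in FosKO at 0, 0.5 and 2 h and 2 at 1 h, and 1, 1, 2 and 1 were lower at 0, 0.5, 1 and 2 h. These 4 of 8 at each time lie near the share of all genes. Fbxw11, the gene of the ligase subunit bTrCP2, had differences of 0.14, 0.19 and 0.22 before 2 h and of 0.44 ± 0.032 (SE, adjusted p = 1.47e-09) then. Cul1, the scaffold of the ligase, was higher by 0.14, 0.20, 0.15 and 0.20, and the kinase gene Chuk by 0.11, 0.094 and 0.11 at 0, 0.5 and 2 h. Ikbkg, the gene of the regulatory IKK subunit NEMO, was lower at each time, with differences of -0.17, -0.14, -0.15 and -0.21, and Skp1a was lower at 1 h (-0.091).

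The other partners of A20 and enzymes of ubiquitin signalling were a list of 17. With LPS 13 had risen and 2 had fallen at 2 h in LysM-Cre, and 12 and 1 in FosKO. Between genotypes 9, 7, 5 and 4 were higher in FosKO over the 4 times and 1, 1, 1 and 2 were lower, with medians between 0.024 and 0.082. The counts at 0.5 and 1 h lie near the share of all genes and that at 2 h below it. Rnf31, the gene of the linear ubiquitin ligase HOIP, was higher at every time, by 0.39, 0.54, 0.51 and 0.51 ± 0.068 (SE, adjusted p = 3.56e-06) at 0, 0.5, 1 and 2 h. Traf2, an adaptor of TNF receptors, was higher by 0.36 and 0.47 at 0 and 0.5 h. Tax1bp1, an A20-binding adaptor, was higher by 0.28, 0.25 and 0.18 at 0, 0.5 and 2 h. The kinase gene Ripk1 was higher at 2 h by 0.33 ± 0.034 (SE, adjusted p = 1.13e-07), and Rbck1, which encodes a partner of HOIP, by 0.16 at 1 h, where Tax1bp1 was higher by 0.16. Lower in FosKO were Otulin at 0 h (-0.15) and 0.5 h (-0.16), Rnf11 at 1 h (-0.12), and Tab1 (-0.43) and Otud7b (-0.13) at 2 h.

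Genes known to depend on the atypical IkB proteins in some settings were a list of 6, of which Csf3 was below the filter. Il6 and Il12b, cytokine genes that can depend on IkBz, were higher in FosKO after LPS. The Il6 difference over 0.5, 1 and 2 h was 0.66, 1.65 ± 0.115 (SE, adjusted p = 1.17e-09) and 1.41 ± 0.115 (SE, adjusted p = 5.54e-09). That of Il12b over the 4 times was 0.34, 0.41, 1.25 and 1.39 ± 0.108 (SE, adjusted p = 2.86e-09). Ccl2, a monocyte chemokine gene, was higher at all 4 times, by 0.55, 0.47, 0.27 and 0.50. Csf2, the gene of GM-CSF, was lower after LPS, with differences of -1.07, -1.43 and -1.31 ± 0.127 (SE, adjusted p = 5.90e-08) over 0.5, 1 and 2 h. Lcn2 was not called at any of the 4 times. The counts over the 5 tested genes were 2 higher at 0 h and 3 higher and 1 lower at each later time, and that at 0 h lies near the share of all genes.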

How the data were processed

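RNA was sequenced from 24 libraries of BMDMs in 8 groups of 3. The authors isolated RNA with columns, sequenced it from a single end on a HiSeq 2500, aligned reads with STAR, counted them per gene with RSEM and tested genes with DESeq2. For the tools of the authors, the submitters' processing notes name STAR 2.5.2a, RSEM 1.2.31 and DESeq2 1.16.1, with the GRCm38 build. The values the authors deposited are log2 values, already normalised, from -2.22 to 19.39. Genes with few reads appear to be drawn towards their mean, as in a regularised log, so that folds of such genes are understated. The study's methods give a typical yield of strand-specific reads but no depth per library, so no counting interval can be given, and the spread between libraries is the error used.

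The design had been written for normalised values, and limma 3.58.1 in R 4.3.3 was run on the log2 values as deposited. Genes with a linear value (2 raised to the log2 value) of 5 or more in 3 or more libraries were tested, 13901 of 24273. One fit had 8 group means and 16 residual degrees of freedom, with empirical Bayes variances trended on the mean. From it 18 comparisons were drawn, with Benjamini-Hochberg adjustment over all genes tested and a threshold of 0.05. The fit was tested on simulated data. With 3 libraries against 3, an exact permutation test cannot go below a p of 0.1 and was not used. Positions and exon lengths came from GENCODE vM21 on GRCm38, and promoter sequences from RefSeq on GRCm38.p6. The 9 genes, the gene lists, the comparisons and the alternatives were chosen with earlier results of these data known. Named beside the 9 genes are the 3 other genes with a symbol nearest to each in root mean square distance and the 3 largest called genotype differences in each direction in each list at each time. Alternatives were other filters, a pseudocount of 1, quantile normalisation and a median shift, fits of the compared groups only or without a variance trend, replicate blocks, the 18S sets, and leaving out each library. One marker gene is not reported here.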

Additional observations from a re-analysis of the deposited data

Results flagged for a closer look

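The change from 0 h after LPS differed between FosKO and LysM-Cre, by the test of that difference in limma, for 13 combinations of gene and time. Values are the change in FosKO minus the change in LysM-Cre on the log2 scale. Tnfaip3 (-0.52) and Nfkbia (-0.31) passed at 0.5 h. At 1 h Bcl3 (-0.82), Tnip1 (-0.36), Nfkbia (-0.26) and Nfkbib (-0.25) passed. With only the groups compared in the fit, both calls at 0.5 h were lost, as were those of Tnip1 and Nfkbib at 1 h. Leaving out single libraries also took the calls of Nfkbia at 0.5 and 1 h and of Nfkbib at 1 h. At 2 h Bcl3 (-0.78), Tnip1 (-0.64), Nfkbia (-0.24) and Nfkbib (-0.22) rose less in FosKO, and Nfkbid (0.32), Nfkbiz (0.32) and Tnip3 (0.32) rose more. For Nfkbia, Nfkbib, Bcl3, Tnip1 and Tnfaip3 the 0 h level was higher in FosKO, and for Nfkbid and Tnip3 it was lower, and these levels enter the difference.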

How the results depend on the processing

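Of 1296 values recomputed without 1 library, 1236 kept their direction and side of the threshold, 47 lost the call, 4 gained it and 9 changed sign, and of 1728 under the other alternatives the numbers were 1660, 40, 17 and 11. Every same-number correlation was over 0.1 in 2 of 28 pairs of groups, both within FosKO (0 with 0.5 h and 0.5 with 1 h), and the labels do not say that the numbers mark a shared animal or day. With one replicate block over both genotypes 4 values gained a call, namely Nfkbie at 2 h (difference between genotypes 0.14, adjusted p = 0.041), Tnfaip3 at 0.5 h (-0.14, 0.0185), Tnip3 at 2 h (-0.11, 0.0408) and the difference in change of Nfkbie at 2 h (-0.23, 0.0417), and none was lost. With a replicate block within genotype the last of these (adjusted p = 0.0269) and the change of Tnip1 from 0 to 0.5 h in FosKO (0.12, 0.0369) gained a call. Genes called among the 9 changed by more than 1.5 times in these cases. For 0.5 h in FosKO 5 passed with only the groups compared (8 in the fit of all groups). The 19 high 18S libraries hold 1 LysM-Cre library at 1 h, so no count is read from them for comparisons with that group. For the difference in change at 0.5 h 1 passed without a variance trend, 0 in the 19 high 18S libraries and 0 with only the groups compared, and 1 to 2 without 1 library. For that at 1 h 2 passed with only the groups compared and 2 to 4 without 1 library. For the mean of the 4 times 5 passed after quantile normalisation. Counts over all genes also moved by more than 1.5 times. The change to 0.5 h in FosKO called 823 genes, but 301 with only the groups compared and 542 without FosKO replicate 3 of 0.5 h. The step from 0.5 to 1 h in FosKO called 3819, but 2471 with only the groups compared. In the 19 high 18S libraries the counts that involve LysM-Cre at 1 h rest on 1 library of that group and are not given. The difference in change at 0.5 h called 16 genes, but 9 in the high 18S libraries, 6 with only the groups compared, 26 after quantile normalisation, 25 with a replicate block within genotype, and 10 or 9 without LysM-Cre replicate 2 or 3 of 0.5 h. That at 1 h called 169, but 112 with only the groups compared.

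Sign changes arose in values of at most 0.15 in size, and their cause was not tested. After quantile normalisation the genotype difference of Nfkbia was -0.069 at 1 h, -0.16 at 2 h (adjusted p = 0.00034) and -0.036 over the 4 times, that of Nfkbib -0.013 at 1 h and -0.052 at 2 h, that of Nfkbie -0.0031 at 2 h, and the step of Nfkbia from 0.5 to 1 h in LysM-Cre -0.014. In the 19 high 18S libraries the difference was 0.0018 for Nfkbia and 0.0094 for Nfkbiz at 0.5 h and 0.095 for Tnip1 at 1 h, and the difference in change of Nfkbid at 1 h was 0.050. Without 1 library the genotype difference at 0.5 h ranged from -0.063 to 8e-04 for Nfkbia and from -0.086 to 0.0064 for Nfkbiz, both turning without LysM-Cre replicate 2. At 1 h it ranged from -0.0019 (without LysM-Cre replicate 1) to 0.056 for Nfkbib, and from -0.042 to 0.024 for Tnip1, which turned without FosKO replicate 1 or LysM-Cre replicate 2 or 3. The difference in change at 1 h of Nfkbid ranged from -0.089 to 0.0072 (without FosKO replicate 2 of 0 h), and at 0.5 h that of Nfkbie ranged from -0.031 to 0.15 and that of Tnip1 from -0.0082 to 0.11 (both turning without FosKO replicate 3 of 0.5 h). Quantile normalisation moved the share of higher calls among all called genes by over 10 percentage points in several comparisons, for genotypes from 53.1% to 42.8% at 1 h and 54.6% to 43% at 2 h, for LPS in LysM-Cre at 0.5, 1 and 2 h from 70.3%, 53.8% and 50.3% to 48.3%, 37.6% and 40%, for LPS in FosKO likewise from 75.2%, 54% and 52.5% to 50.5%, 35.3% and 39.2%, and for steps from 52.2% to 41.8% (0.5 to 1 h, LysM-Cre), 52.7% to 39.1% (0.5 to 1 h, FosKO) and 53.6% to 42.1% (1 to 2 h, FosKO). A median shift moved none by so much.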
